A study of Mus musculus with 12 samples.

Results

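The 8 genes described here encode the water channel, anchoring proteins and other membrane proteins linked to the astrocyte endfoot. An endfoot is the process with which an astrocyte covers a blood vessel or the brain surface. The genes were taken by symbol from the deposited count table, 8 of its 52550 features, and all 8 passed the filter on low counts that left 14990 genes. They are Aqp4, Dag1, Dtna, Dmd, Mlc1, Hepacam, Clcn2 and Gpr37l1. The series asks how the loss of FMRP, the RNA-binding protein of the Fmr1 gene, alters RNA in cortical astroglia. The first group is Fmr1 knockout (Fmr1-/y, KO) and the second wild type (Fmr1+/y, WT), each with 3 libraries from somatosensory cortex at postnatal day 40 on an FVB/C57 background. Both genotypes carry the Aldh1l1-TRAP transgene, in which an eGFP tag on ribosomes, driven by the astrocyte promoter Aldh1l1, lets antibody beads pull down ribosome-bound RNA. The values therefore describe RNA on tagged ribosomes plus whatever RNA the beads carry along, and the labels do not say whether each library is 1 animal.

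In an endfoot, AQP4 passes water, and the dystrophin complex holds AQP4 at the membrane that faces the vessel. In that complex dystroglycan, the product of Dag1, binds laminin, agrin and perlecan outside the cell and dystrophin inside it, while alpha-dystrobrevin and the syntrophins link dystrophin to AQP4. MLC1 and GlialCAM, the product of Hepacam, sit at contacts between endfeet, and GlialCAM is a subunit of the chloride channel ClC-2. Faults in the gene of MLC1 or of GlialCAM cause the human white matter disease megalencephalic leukoencephalopathy with subcortical cysts.

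Before the results, 3 facts of the libraries matter. Fmr1 itself measured 4.32, 4.22 and 1.32 CPM (read counts relative to library size, scaled between libraries by TMM) in KO libraries 14, 16 and 18, against 31.6, 38.4 and 37.0 CPM in WT libraries 13, 15 and 17. Its log2 fold change was -3.53 (SE 0.41), and yet its adjusted p was 0.2995 in edgeR's quasi-likelihood test and 0.148 in limma voom. The adjusted p of Fmr1 was 1.68e-11 in edgeR's exact test and 3.12e-16 in DESeq2. Total counts ran from 10953978 to 21696894 in KO libraries and from 19787554 to 22397230 in WT libraries, and the 8 genes together held 27252 to 56776 of them in KO and 55131 to 83395 in WT. Features that collect ribosomal RNA reads took 35.6% of the counts in KO library 14 and 45.1% in KO library 16, but 0.892% in KO library 18 and 0.939% to 7.45% in WT libraries. All 12 astrocyte markers passed the filter on low counts, and so did all 12 neuron markers and 9 of 10 endothelial markers, so markers of other cell types were detected in these pull-downs.

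None of the 8 genes differed between knockout and wild type beyond the spread between libraries. In the edgeR quasi-likelihood test 0 of the 8 had an adjusted p under 0.05, and the share of all genes tested that did was 0%. At an unadjusted p under 0.05 the count was 0 of 8, against 265 genes or 1.77% of all tested, and the smallest unadjusted p of a member was 0.509, for Mlc1. DESeq2, edgeR's exact test and limma voom also called 0 of the 8, with 0 at an unadjusted p under 0.05 in each. The log2 fold changes of knockout over wild type ran from -0.13 to 0.20, with 3 of 8 above 0, where 49.6% of all genes were above 0. Their median was -0.011, and that of all genes tested was -0.0019. For every member the knockout and WT libraries overlapped, as they did for all but 6.2% of the genes tested. With KO above all WT libraries the members' count was 0 of 8 (2.95% of all genes) and with KO below it was 0 of 8 (3.25% of all genes).

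**Figure D1:**
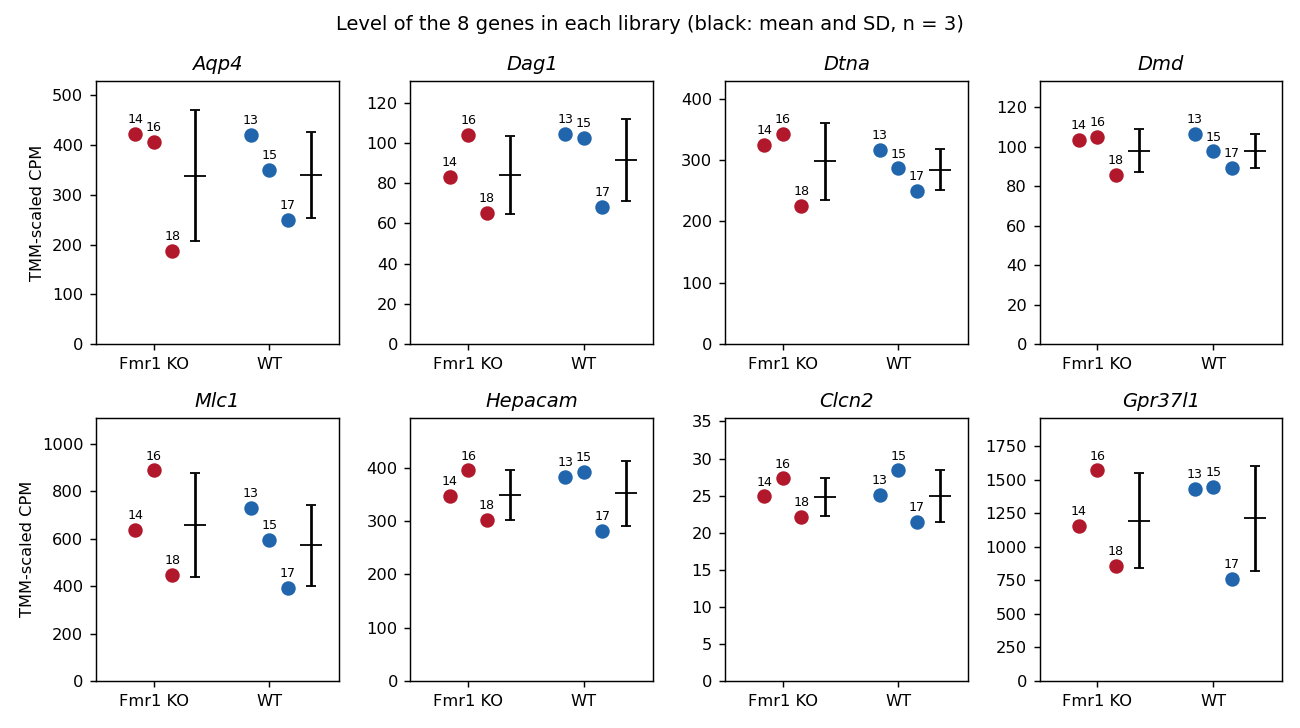
TMM-scaled CPM (vertical axes, from 0) of each of the 8 genes in the 3 KO libraries (red) and the 3 WT libraries (blue); numbers are library numbers, and black marks give the mean and SD. In every panel the ranges of both genotypes overlap, and KO library 18 and WT library 17 are the lowest.

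Aqp4, the water channel gene, measured 423, 405 and 188 CPM in KO libraries 14, 16 and 18, against 420.1, 349.6 and 249.6 CPM in WT libraries 13, 15 and 17. Knockout library 18 was the lowest of all, while the other two KO libraries stood beside WT library 13. The means were 339 ± 131 CPM in KO and 339.8 ± 85.7 CPM in WT (SD, n = 3 each). The log2 fold change was -0.0063 (SE 0.32), with a 95% interval for the fold from 0.601 to 1.65. Its highest and lowest libraries differed 2.25-fold within KO and 1.68-fold within WT.

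Dag1 encodes dystroglycan, the receptor that ties the endfoot to the basal lamina. It measured 83.1, 104 and 65.2 CPM in KO libraries 14, 16 and 18, against 105, 102 and 68.2 CPM in WT libraries 13, 15 and 17. Libraries 18 and 17 were low, and KO library 14 lay between them and the rest. The means were 84.1 ± 19.5 CPM in KO and 91.7 ± 20.4 CPM in WT (SD, n = 3 each), with a log2 fold change of -0.13 (SE 0.23) and a 95% interval for the fold from 0.6396 to 1.31. It was the lowest fold change among the 8 genes.

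Dtna, the gene of alpha-dystrobrevin, the dystrophin relative that carries syntrophins, measured 325, 343 and 226 CPM in the 3 KO libraries, in the same order, against 317, 287 and 249.99 CPM in the WT libraries. The means were 298 ± 63.2 CPM in KO and 284 ± 33.4 CPM in WT (SD, n = 3 each; log2 fold change 0.067, SE 0.19, 95% interval for the fold 0.775 to 1.42). Both the highest and the lowest library of Dtna were KO libraries.

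Dmd, the dystrophin gene, gave the narrowest interval of the 8. It measured 103, 105 and 85.6 CPM in the KO libraries, against 107, 97.6 and 89.2 CPM in the WT libraries. The means were 98.0 ± 10.8 CPM in KO and 97.8 ± 8.70 CPM in WT (SD, n = 3 each; log2 fold change 0.0020, SE 0.14), and the 95% interval for the fold ran from 0.795 to 1.26. All 6 libraries lay within a range of 0.32 log2 units.

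Dmd is read from several starts. Full-length dystrophin is known from muscle and neurons, and shorter products from later starts are known from glia. The count per gene sums them, so a shift between starts could not be seen here. RefSeq windows (GRCm38.p6) around 2 of its starts, 2099425 bases apart within the gene at chrX:82814664-85205050, show how unlike these starts are. Each window runs from 250 bases before to 50 after a start, 5′ to 3′ on the + strand, at chrX:82948620-82948919 (start at 82948870) and chrX:85048045-85048344 (start at 85048295). Capitals mark GGGCGG (the GC box bound by SP1), TTGGCA (an NFI half-site) and ACAAAG (a SOX motif), searched on both strands.
Dmd, upstream start: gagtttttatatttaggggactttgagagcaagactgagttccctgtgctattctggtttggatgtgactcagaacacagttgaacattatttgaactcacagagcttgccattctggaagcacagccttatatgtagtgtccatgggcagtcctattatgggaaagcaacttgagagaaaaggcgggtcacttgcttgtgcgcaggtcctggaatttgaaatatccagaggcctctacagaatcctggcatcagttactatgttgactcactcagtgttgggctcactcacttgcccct
Dmd, downstream start: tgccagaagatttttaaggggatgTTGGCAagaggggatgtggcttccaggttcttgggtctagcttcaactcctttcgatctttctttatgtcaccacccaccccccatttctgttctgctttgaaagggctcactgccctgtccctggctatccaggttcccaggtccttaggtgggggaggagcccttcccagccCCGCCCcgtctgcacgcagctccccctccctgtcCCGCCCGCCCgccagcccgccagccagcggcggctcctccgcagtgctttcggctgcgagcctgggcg
The upstream window is 45.7% G and C and holds none of the 3 motifs, and the downstream window is 62.7% G and C with 3 GC boxes, 2 of them overlapping, and 1 NFI half-site. Of all 32851 RefSeq windows of 300 bases, 35.7% hold a GC box, 14.1% the NFI half-site and 18.7% the SOX motif.

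Mlc1, which encodes the endfoot membrane protein MLC1, had the highest fold change of the 8, within its error. It measured 638, 889 and 449 CPM in KO libraries 14, 16 and 18, against 731, 594 and 392 CPM in WT libraries 13, 15 and 17. Knockout library 16 stood above every other library, and KO library 18 was below WT libraries 13 and 15. The means were 659 ± 221 CPM in KO and 572 ± 171 CPM in WT (SD, n = 3 each; log2 fold change 0.20, SE 0.29, 95% interval for the fold 0.722 to 1.83). Without KO library 16 the log2 fold change of Mlc1 was -0.075 and without WT library 17 it was -0.0097, so either of these libraries decided its direction.

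The same held for the set. Without KO library 18 all 8 fold changes were above 0, with a median of 0.13, while without KO library 16 or without WT library 17 all 8 were below 0, with medians of -0.10 and -0.14. Aqp4 was at 0.28 without KO library 18 and at -0.20 without KO library 14. In none of these fits did a member pass (edgeR quasi-likelihood, lowest adjusted p of 0.999).

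Hepacam, the gene of GlialCAM, which brings MLC1 and ClC-2 to cell contacts, measured 348, 395 and 301 CPM in the KO libraries, against 383, 392 and 282 CPM in the WT libraries. The means were 348 ± 46.8 CPM in KO and 352 ± 61.1 CPM in WT (SD, n = 3 each; log2 fold change -0.018, SE 0.18, 95% interval for the fold 0.745 to 1.31). Clcn2, the gene of the chloride channel ClC-2, had the fewest counts, 194 in KO library 16 at the lowest and 719 in WT library 15 at the highest. It measured 24.9, 27.3 and 22.1 CPM in the KO libraries, against 25.1, 28.4 and 21.4 CPM in the WT libraries. The means of Clcn2 were 24.8 ± 2.59 CPM in KO and 24.98 ± 3.49 CPM in WT (SD, n = 3 each). Its log2 fold change was -0.016 (SE 0.16) with a 95% interval for the fold from 0.764 to 1.28, and its libraries were close together in both genotypes.

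Gpr37l1 encodes a glial G protein-coupled receptor, for which prosaposin is a reported ligand. It held more counts than any other member in every library. It measured 1155, 1568 and 859.5 CPM in KO libraries 14, 16 and 18, against 1432, 1444 and 758 CPM in WT libraries 13, 15 and 17. The means were 1194 ± 356 CPM in KO and 1211 ± 393 CPM in WT (SD, n = 3 each; log2 fold change -0.020, SE 0.2955, 95% interval for the fold 0.616 to 1.58). Libraries differed 1.82-fold within KO and 1.90-fold within WT. No level is compared between genes here, since counts grow with transcript length, which the files do not give.

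**Figure D2:**
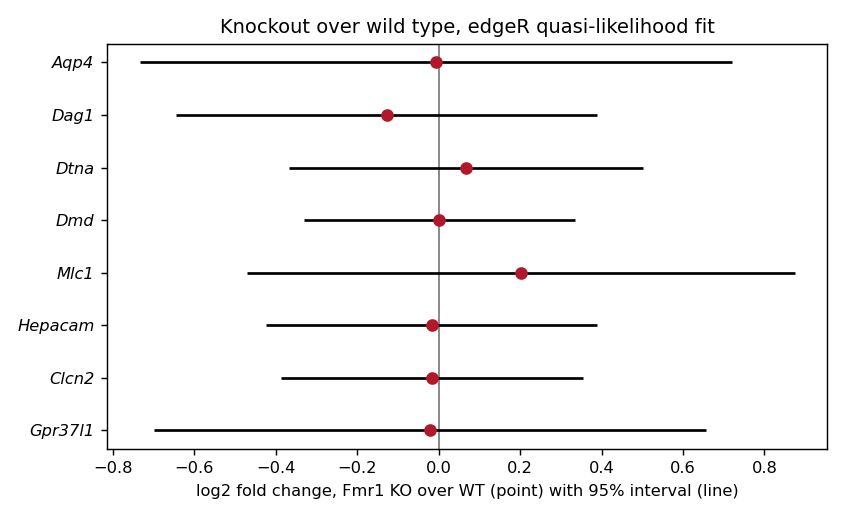
Log2 fold change of knockout over wild type (horizontal axis) for each of the 8 genes, with its 95% interval from the edgeR quasi-likelihood fit on 3 libraries per genotype. Every interval spans 0; that of Dmd is the narrowest (-0.33 to 0.33) and that of Aqp4 the widest (-0.73 to 0.72).

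The exact two-sided permutation test on log2 CPM gave p from 0.6 to 1 for the 8 genes, where 3 libraries against 3 cannot go below 0.1. The deposited table of the authors, which has a column for each of the 12 entries, lists log2 fold changes from -0.13 for Dag1 to 0.20 for Mlc1. All 8 have an adjusted p of 0.9995 in the authors' deposited table.

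The larger differences lay between libraries of 1 genotype. In all 8 genes the 2 lowest of the 6 libraries were KO library 18 and WT library 17, 1 of each genotype, as in 16% of all genes tested. Set against the mean of the 6 libraries, the median of the 8 genes was 0.046, 0.26 and -0.38 in KO libraries 14, 16 and 18, and 0.21, 0.14 and -0.32 in WT libraries 13, 15 and 17 (log2 units). The 8 genes had a median SD within a genotype of 0.30 log2 units, against 0.28 for all genes tested and 0.20 for the 7809 genes with a mean log2 CPM of at least 4. Genotype accounted for a median of 0.293% of the variance of a member over the 6 libraries, from 0.000935% in Dmd to 5.86% in Mlc1. The median was 7.24% for all genes tested and 5.34% for the 7809 genes with a mean log2 CPM of at least 4.

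Markers of some cell types moved with the same libraries. The astrocyte markers had medians of 0.11, 0.25 and -0.24 in KO libraries 14, 16 and 18 and 0.23, 0.028 and -0.25 in WT libraries 13, 15 and 17, also against the mean of the 6 libraries. For 8 of the 12 astrocyte markers libraries 18 and 17 were the lowest pair, against 16% of all genes tested. The neuron markers ran the other way, with medians of 0.027, -0.36 and 0.52 in KO libraries 14, 16 and 18 and -0.68, 0.15 and 0.38 in WT libraries 13, 15 and 17. Summed over the 12 neuron markers the level was 1757 to 2519 CPM in KO and 1271 to 2408 CPM in WT, and over the 12 oligodendrocyte markers it was 658 to 1511 CPM in KO and 724 to 1282 CPM in WT. Markers of endothelial cells, which the endfeet touch, summed to 5.87 to 15.6 CPM in KO and 8.69 to 13.05 CPM in WT over 9 genes. The 10 mural and fibroblast markers that passed summed to 67.9 to 71.9 CPM in KO and 65.8 to 72.8 CPM in WT, and the 10 microglia markers to 54.9 to 63.2 CPM in KO and 57.4 to 75.9 CPM in WT. Against the mean of the 6 libraries, the microglia medians were -0.15 in KO library 18 and 0.079 in WT library 17. Those of the mural and fibroblast markers were 0.18 in KO library 18 and 0.025 in WT library 17. Not every astrocyte gene was low in libraries 18 and 17: Aldoc, the astrocyte aldolase, measured 6733, 7034 and 7106 CPM in KO libraries 14, 16 and 18 and 7685, 6590.4 and 6823 CPM in WT libraries 13, 15 and 17. The part of neuronal and oligodendrocyte RNA in the levels of the 8 genes was not tested, and in bulk samples fewer astrocytes and less of these RNAs per astrocyte cannot be told apart.

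**Figure D3:**
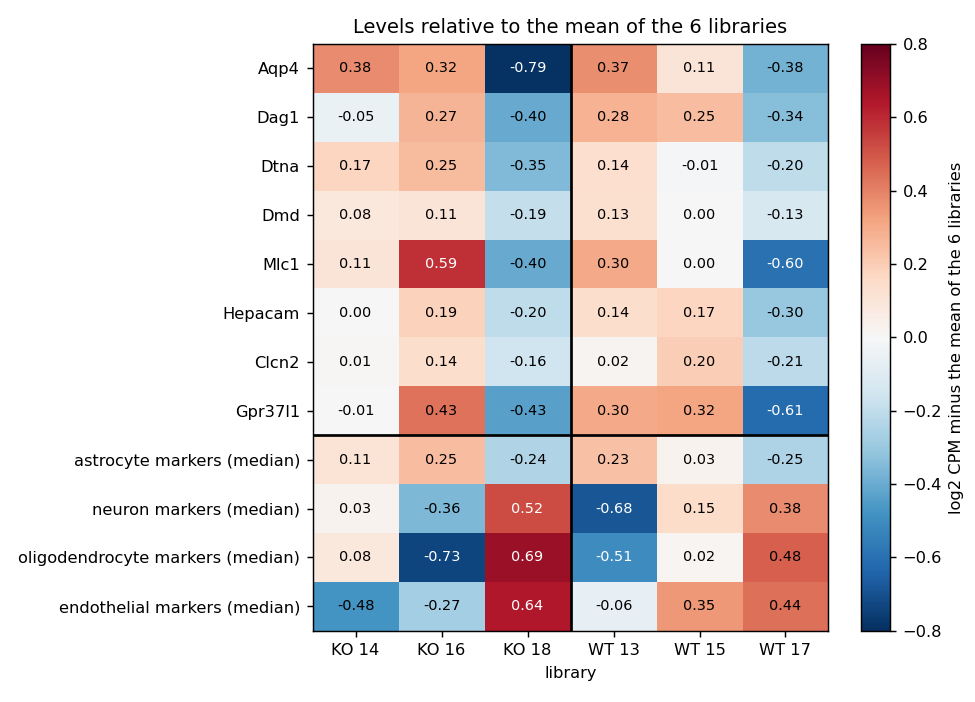
Log2 CPM minus the mean of the 6 libraries (colour and printed value) for the 8 genes and for the medians of 4 marker lists, with KO libraries left of the line and WT libraries right of it. Knockout library 18 and WT library 17 are negative for all 8 genes and for the astrocyte markers, and positive for neuron, oligodendrocyte and endothelial markers.

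The titles of libraries 13, 14 and 16 carry a first number 5 and those of 15, 17 and 18 a first number 6, whose meaning the labels do not give. Within number 5 the difference of KO libraries 14 and 16 from WT library 13 ran from -0.17 log2 units for Dag1 to 0.077 for Dtna. Within number 6 KO library 18 was below the mean of WT libraries 15 and 17 in all 8 genes, by -0.65 log2 units for Aqp4, -0.36 for Dag1 and -0.10 for Mlc1. Each of these sets holds 1 library of a genotype, so the values have no test of their own. With the title number as a covariate all 8 fold changes were below 0, from -0.35 for Aqp4 to -0.036 for Mlc1, and 0 of 8 passed (edgeR quasi-likelihood, lowest adjusted p of 0.971).

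The share of ribosomal RNA reads was high in KO libraries 14 and 16, while in KO library 18, at 0.892%, it was below that of every WT library. With that share as a covariate, the log2 fold change of Aqp4 was -0.73 and the median of the 8 genes -0.30, against -0.013 for all genes tested. The unadjusted p of Aqp4 was 0.0454 in this edgeR fit, and its adjusted p 0.860. Without KO libraries 14 and 16, which leaves library 18 alone in its group and assumes that it varies like the WT libraries, Aqp4 was at -0.83 (unadjusted p = 0.0482, adjusted p = 0.965 by edgeR's quasi-likelihood fit). With library size alone as the scaling, where the median of all genes was -0.44, Dag1 was at -0.63 (unadjusted p = 0.0426, adjusted p = 0.451 by edgeR's quasi-likelihood fit). Without libraries 18 and 17, a choice made after the data were seen, Aqp4 was at 0.11 and Mlc1 at 0.21, and 0 of the 8 passed.

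**Figure D4:**
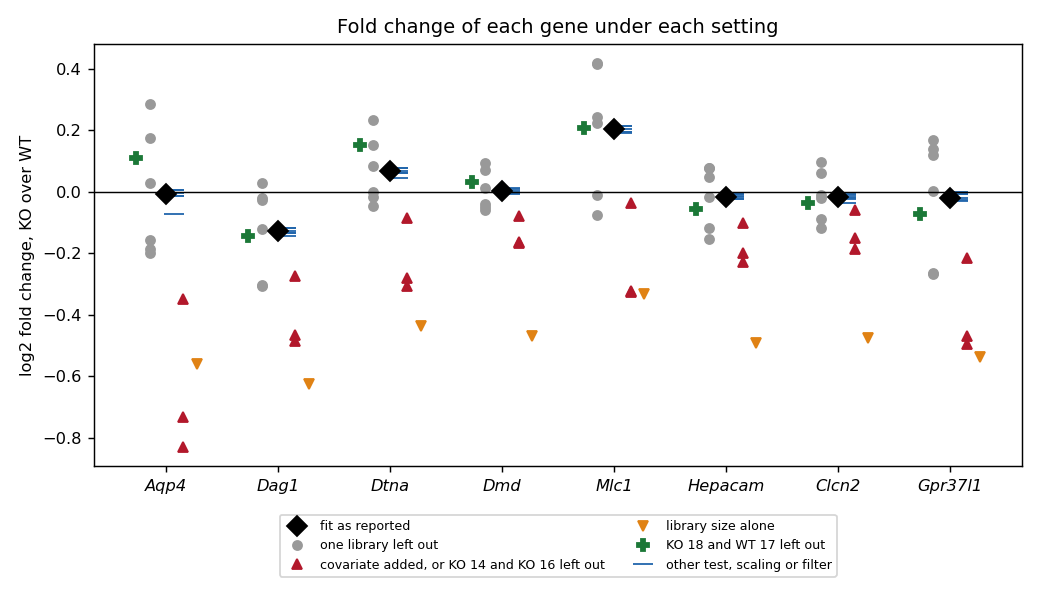
Log2 fold change of knockout over wild type (vertical axis) of each of the 8 genes in the fit as reported (black) and under each other setting. Points of single left-out libraries fall on both sides of 0 for all 8 genes, and those with a covariate, or without KO libraries 14 and 16, lie below 0.

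Over the 6 libraries all 28 pairs of members had a positive Pearson correlation of log2 CPM, with a median of 0.872. Over all pairs of the 14990 genes tested 49.8% were positive and 2.27% reached that median. Pairs of other astrocyte genes were not examined. The correlations share libraries and scaling. Leaving out the 2 libraries farthest from the median, which were 17 and 18 for most pairs, left a median of 0.51 over the 28 pairs, with 19 positive and 9 negative, and 3 of the 19 were close to 0 (0.032 to 0.039). For those 9 and these 3, among them Dag1 with Dmd, the relation rested on the libraries left out. The closest pair was Hepacam and Gpr37l1 (r = 0.997, exact permutation p = 0.00139, adjusted 0.0278; rho = 1, exact permutation p = 0.00278, adjusted 0.0778), which kept r = 0.979 over the remaining 4. Aqp4 went with Dmd (r = 0.979, exact permutation p = 0.00556, adjusted 0.0278; rho = 0.829, exact permutation p = 0.0583, adjusted 0.136) and kept r = 0.917. Aqp4 and Clcn2 had r = 0.731 (exact permutation p = 0.110, adjusted 0.114; rho = 0.371, exact permutation p = 0.497), which was -0.879 without libraries 17 and 18.

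RefSeq windows (GRCm38.p6) around the starts of Hepacam and Gpr37l1, the pair most alike, and of Mlc1, the partner of GlialCAM, are shown for what their start regions share. They lie at chr9:37367356-37367655 (+ strand), chr1:135167632-135167931 (- strand) and chr15:88978504-88978803 (- strand), with the same extent and the same capitals as for Dmd.
Hepacam: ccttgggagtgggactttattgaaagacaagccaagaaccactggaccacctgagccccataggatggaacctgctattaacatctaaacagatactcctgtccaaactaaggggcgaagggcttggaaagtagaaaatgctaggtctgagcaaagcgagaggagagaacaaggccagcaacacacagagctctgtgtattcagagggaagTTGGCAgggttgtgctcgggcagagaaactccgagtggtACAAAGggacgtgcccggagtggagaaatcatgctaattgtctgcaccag
Gpr37l1: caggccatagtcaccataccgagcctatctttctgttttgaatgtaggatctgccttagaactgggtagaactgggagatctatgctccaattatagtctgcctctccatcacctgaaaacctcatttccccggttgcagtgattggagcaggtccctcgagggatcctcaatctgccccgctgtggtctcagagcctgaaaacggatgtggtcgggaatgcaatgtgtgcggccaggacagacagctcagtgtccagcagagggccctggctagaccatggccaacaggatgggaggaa
Mlc1: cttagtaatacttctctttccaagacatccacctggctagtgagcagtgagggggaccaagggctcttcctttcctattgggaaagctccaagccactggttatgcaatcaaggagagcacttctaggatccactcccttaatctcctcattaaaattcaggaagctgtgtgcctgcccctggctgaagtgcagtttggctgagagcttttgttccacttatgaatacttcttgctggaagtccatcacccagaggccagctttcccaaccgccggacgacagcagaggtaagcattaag
All 3 lack the GC box, which only 35.7% of all RefSeq windows hold. They are 49.7% to 53.7% G and C, close to the median of 52.7% of all windows. Hepacam holds 1 NFI half-site and 1 SOX motif, and these letters are in neither of the other windows. In all, 6 of the 8 genes matched a RefSeq window, and the windows of Dag1 (2 starts) and Clcn2 hold GC boxes, 3 or 4 for Dag1 and 1 for Clcn2. Over the 6 libraries Dag1 (r = 0.970 and 0.972) and Clcn2 (r = 0.951 and 0.939) went with Hepacam and Gpr37l1 more closely than Mlc1 did (r = 0.906 and 0.930). The lack of a GC box was thus not shared by all the genes most alike in pattern. In that build the genes themselves span chr9:37367356-37386572 (Hepacam), chr1:135160250-135167681 (Gpr37l1), chr15:88955884-88982693 (Mlc1), chr9:108204861-108263977 (Dag1) and chr16:20702435-20717746 (Clcn2). The windows of Hepacam, Mlc1 and Clcn2, with starts at 37367606, 88978553 and 20716636, lie inside these spans, so their starts are internal to the genes.

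The genes whose pattern over the 6 libraries was most like that of Aqp4, among 5149 others with a mean log2 CPM of at least 5, were Fbxo28 (r = 0.997), Rabep1 (r = 0.995), Luzp2 (r = 0.994), Mfap3l (r = 0.994) and Eps8 (r = 0.991). Their Spearman's rho was 0.943, and 1 for Luzp2, and r without libraries 18 and 17 was 0.900 to 0.995; they were picked as the highest values, so no p is given. Among the members Dmd ranked 49 and Dtna 73 in this order, while Hepacam ranked 950.

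Ratios within a library do not depend on scaling, and 8 pairs of genes were compared in this way. No difference between knockout and wild type passed (exact two-sided permutation p from 0.2 to 1, adjusted p of 1 for each). The log2 ratio of Aqp4 to Kcnj10, the endfoot potassium channel gene, was 0.43 ± 0.15 in KO and 0.78 ± 0.35 in WT (SD, n = 3 each; difference -0.35, exact permutation p = 0.2). That difference was -0.17 without WT library 17 and -0.10 without libraries 18 and 17. Mlc1 to Hepacam was 0.87 ± 0.30 in KO and 0.67 ± 0.24 in WT (difference 0.20, exact permutation p = 0.5). Clcn2 to Hepacam was at -3.80 ± 0.044 in KO and -3.81 ± 0.11 in WT (exact permutation p = 1). Dmd to Utrn, the gene of the dystrophin relative utrophin, was 1.97 ± 0.45 in KO and 1.91 ± 0.30 in WT (exact permutation p = 0.9). Aqp4 to Dag1, Aqp4 to Dtna, Dtna to Dmd and Gpr37l1 to Gpr37 differed between knockout and wild type by -0.11 to 0.061.

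The genes around the 8 were described from 7 lists with 85 genes, of which 69 passed the filter. Of these 69, 0 passed in edgeR's quasi-likelihood test, with 1 at an unadjusted p under 0.05 (1.45%, against 1.77% of all genes tested). DESeq2 called 8 genes in all, edgeR's exact test 9 and limma voom 0, and none of them was a member. By direction 31 of the 69 were higher and 38 lower in KO, with a median log2 fold change of -0.033. In 5 of the 69 (7.25%, against 6.2% of all genes) the genotypes did not overlap, 4 with the knockout above and 1 below. Libraries 18 and 17 were the lowest pair in 24 of the 69 (34.8%, against 16% of all genes tested).

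Among the 13 other dystrophin complex genes tested, 6 were higher and 7 lower in KO, and their log2 fold changes had a median of -0.024. The smallest p values belonged to Sntg1, a syntrophin known from neurons, Sntb1 and Sgcd. Sntg1 measured 14.4, 18.2 and 19.0 CPM in the KO libraries, against 11.5, 13.7 and 13.9 CPM in the WT libraries (log2 fold change 0.40, SE 0.18, adjusted p = 1.00 and unadjusted p = 0.0572 by edgeR's quasi-likelihood fit). The KO libraries of Sntg1 lay above all WT libraries, but it did not pass. Sntb1 measured 5.9996 ± 1.56 CPM in KO and 8.56 ± 1.80 CPM in WT, and Sgcd, a sarcoglycan gene, 0.868 ± 0.388 CPM in KO and 0.465 ± 0.0611 CPM in WT (SD, n = 3 each). The KO libraries of Sgcd also lay above all WT libraries, but Sgcd had at most 19 counts in any library.

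Genes of dystroglycan glycosylation, through which dystroglycan gains the sugar chain that binds laminin, had a median of -0.041, with 7 higher and 10 lower in KO among 17 tested. Pomgnt1, a glycosyltransferase of this list, was the 1 gene at an unadjusted p under 0.05. It measured 40.9, 44.1 and 37.0 CPM in the KO libraries, against 35.7, 31.3 and 30.7 CPM in the WT libraries, so the genotypes did not overlap. Its log2 fold change was 0.32 (SE 0.14, adjusted p = 1.00 and unadjusted p = 0.0455 by edgeR's quasi-likelihood fit). B3galnt2, another enzyme of the list, measured 6.82 ± 1.24 CPM in KO and 6.23 ± 0.456 CPM in WT (SD, n = 3 each).

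The 13 basal lamina genes, among them the ligands of dystroglycan, had a median of -0.033, with 6 higher and 7 lower in KO. Lamb2, a laminin chain, measured 39.6 ± 2.55 CPM in KO and 43.1 ± 10.5 CPM in WT, Lamc1, its partner chain, 11.8 ± 0.900 CPM in KO and 12.9 ± 1.11 CPM in WT, and Nid2 1.38 ± 0.392 CPM in KO and 1.15 ± 0.0678 CPM in WT (SD, n = 3 each). Of 11 other aquaporin genes 4 passed the filter, and Aqp3, Aqp7 and Aqp12 had 0 counts in every library. Aqp9, a channel for water and small solutes, measured 7.83, 8.59 and 6.04 CPM in the KO libraries, against 5.79, 4.94 and 5.13 CPM in the WT libraries (log2 fold change 0.49, SE 0.23, adjusted p = 1.00 and unadjusted p = 0.0613 by edgeR's quasi-likelihood fit). All 3 KO libraries of Aqp9 were above the WT libraries. Aqp11 measured 9.75 ± 2.62 CPM in KO and 10.9 ± 2.31 CPM in WT, and Aqp2 0.635 ± 0.323 CPM in KO and 0.533 ± 0.129 CPM in WT.

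A list of endfoot membrane and volume regulation genes around MLC1 and GlialCAM had a median of -0.069, with 4 higher and 7 lower in KO among 11 tested. The smallest p values belonged to Cav1 (4.49 ± 1.42 CPM in KO and 6.42 ± 1.45 CPM in WT), Vim (59.3 ± 8.58 CPM in KO and 70.1 ± 9.08 CPM in WT) and Lrrc8c (9.22 ± 2.16 CPM in KO and 11.2 ± 1.56 CPM in WT), which encode caveolin, vimentin and a volume-regulated anion channel subunit. Lrrc8d, named after its values were seen, was the 1 gene of the lists with all KO libraries below, at 8.81, 9.997 and 9.63 CPM, against 10.1, 10.03 and 11.3 CPM in WT. Gja1, the gene of a connexin, and Kcnj10 were also lowest in libraries 18 and 17.

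The relatives of Clcn2 had a median of -0.063, with 2 higher and 4 lower in KO among 6 tested. Libraries 18 and 17 were the lowest pair in 5 of these 6, against 16% of all genes tested. Clcn3 measured 162 ± 47.8 CPM in KO and 164 ± 21.9 CPM in WT, Clcn4 108 ± 14.0 CPM in KO and 116 ± 10.1 CPM in WT, Clcn5 5.48 ± 1.16 CPM in KO and 6.07 ± 1.27 CPM in WT, and Clcn6 43.3 ± 3.15 CPM in KO and 39.8 ± 6.54 CPM in WT (SD, n = 3 each). Around Gpr37l1, 5 genes were tested, with a median of 0.020, 3 higher and 2 lower. Psap, the prosaposin gene, measured 1075 ± 239 CPM in KO and 1018 ± 210.4 CPM in WT (log2 fold change 0.078, SE 0.22), Ptch1, a Hedgehog receptor, 90.1 ± 28.4 CPM in KO and 79.7 ± 22.9 CPM in WT, and Ednra, an endothelin receptor, 6.37 ± 0.709 CPM in KO and 8.09 ± 4.03 CPM in WT (SD, n = 3 each). The WT libraries of Ednra ranged from 3.52 to 11.2 CPM, on both sides of the KO libraries.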

How the data were processed

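The deposited table holds RSEM expected counts per gene for 12 entries, unscaled, per the file headers. The submitters' processing notes name STAR 2.5.3a, RSEM 1.3.0, edgeR and the mm10 build. The sources used here give neither the strand setting nor the annotation release. A second table that the authors deposited gives log2 fold changes, p-values and a scaled signal per entry, of which the signal was not used. Each library was deposited as 2 entries, whose counts gave a median chi-square per feature of 0.467 to 0.494, against 2.92 to 18.7 between libraries of 1 group, so they differed by about the sampling noise for most features; they were summed, rounded and counted as 1 sample. No number pairs libraries across genotypes. The p-values reflect spread among these 6 libraries alone, and that spread may be technical.

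Genes were filtered with filterByExpr, scaled by TMM and tested with edgeR 4.0.16 (quasi-likelihood, R 4.3.3) on genotype, with Benjamini-Hochberg adjustment over 14990 genes and a threshold of 0.05; SEs come from the F statistic. Log2 CPM used a prior count of 2. DESeq2 1.42.0, edgeR's exact test, limma 3.58.1 voom, other scalings, filters, covariates and left-out libraries were alternatives. On simulated data with 3 libraries a group, the test called 48% of 100 genes changed 2-fold and 88% of 100 changed 4-fold. The simulation held 200 changed genes, and the adjusted p of a gene depends on how many others have a small p. In the data no gene passed, Fmr1 included (log2 fold change -3.53, adjusted p = 0.2995 by edgeR's quasi-likelihood fit). The simulated shares therefore do not give the chance of a call for the members. The lists and members were chosen with earlier results of these data known. The text names the members, Fmr1, for each list the 3 genes with the smallest p and the one with the highest CPM, and the 5 genes most like Aqp4; marker genes are given by level. Some genes that this rule names are not reported here.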

Additional observations from a re-analysis of the deposited data

How the results depend on the processing

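In every setting 0 of the 8 genes passed. Their counts ran from 194 to 36545 in a library, and an effect of depth on the calls was not tested. Changes smaller than 2-fold were not simulated. No paired analysis was possible because the library numbers are not shared between the genotypes. Values below are log2 fold changes of knockout over wild type, and the cause of each difference was not tested. The count of all genes past the threshold was 0 as reported, 9 in edgeR's exact test, 8 in DESeq2, 2 with library size alone, 6 with no filter, 1 when adjusted for the ribosomal RNA share, 9 without libraries 18 and 17 (added after the data were seen) and 0 to 2 with 1 library left out.

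With 1 library left out the ranges were Dtna -0.046 to 0.23, Dmd -0.061 to 0.092, Gpr37l1 -0.27 to 0.17, B3galnt2 -0.025 to 0.22, the median of the basal lamina genes -0.10 to 0.061, Mlc1 -0.075 to 0.42, Aqp2 -0.25 to 0.50 and Ptch1 -0.039 to 0.40. Further ranges were Psap -0.11 to 0.21, Aqp4 -0.20 to 0.28, Dag1 -0.31 to 0.028, Hepacam -0.16 to 0.077, Clcn2 -0.12 to 0.097, Aqp11 -0.38 to 0.012, Clcn4 -0.17 to 0.0059, Clcn3 -0.21 to 0.19 and the median of the other dystrophin complex genes -0.050 to 0.095. Further ranges were Lamb2 -0.28 to 0.073, Clcn5 -0.33 to 0.035, Clcn6 -0.0030 to 0.24, the ratio Aqp4 to Dag1 -0.14 to 0.27, the ratio Aqp4 to Dtna -0.24 to 0.078, the ratio Dtna to Dmd -0.011 to 0.14, the ratio Dmd to Utrn -0.16 to 0.29, the ratio Clcn2 to Hepacam -0.058 to 0.050 and the ratio Gpr37l1 to Gpr37 -0.17 to 0.22. For the remaining ratios and list medians the ranges were the ratio Aqp4 to Kcnj10 -0.51 to -0.17, the ratio Mlc1 to Hepacam 0.056 to 0.35, the glycosylation genes -0.11 to 0.025, the other aquaporins -0.25 to 0.40, the genes around MLC1 -0.18 to 0.060, the relatives of Clcn2 -0.19 to 0.082 and the genes around Gpr37l1 -0.15 to 0.18.

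With DESeq2, the value was Aqp4 0.0040. With limma voom, values were Dmd -0.0068 and Aqp2 -0.026. With RLE size factors, the value was Aqp4 0.0037. With library size alone, where the median of all genes was -0.44, values were Dag1 -0.63, Aqp4 -0.56, Gpr37l1 -0.54, Hepacam -0.49, Clcn2 -0.48, Dtna -0.44, Dmd -0.47, Mlc1 -0.33, Sntg1 -0.017, Pomgnt1 -0.14, B3galnt2 -0.31, Nid2 -0.23, Aqp2 -0.37 and Clcn6 -0.33. In the same setting, values were Ptch1 -0.36, Psap -0.42, the median of the other dystrophin complex genes -0.44, the median of the glycosylation genes -0.49, the median of the basal lamina genes -0.47, the median of the other aquaporins -0.35, the median of the genes around MLC1 -0.58, the median of the relatives of Clcn2 -0.57 and the median of the genes around Gpr37l1 -0.42. With ribosomal RNA features left out, the value was Dmd -0.0040. With no filter on low counts, the value was Dmd -0.0048. Without knockout libraries 14 and 16, values were Dtna -0.31, Dmd -0.17, Mlc1 -0.32, Lamc1 0.013, Aqp2 -0.58, Ptch1 -0.41, Psap -0.20, the median of the basal lamina genes 0.072 and the median of the other aquaporins -0.58. In the same setting, values were the median of the genes around MLC1 -0.41 and the median of the genes around Gpr37l1 -0.41. With title number as covariate, values were Dtna -0.085, Dmd -0.079, Mlc1 -0.036, Aqp2 -0.072, Ptch1 -0.081, Psap -0.049 and the median of the basal lamina genes 0.059. With ribosomal RNA share as covariate, values were Dtna -0.28, Dmd -0.16, Mlc1 -0.32, Nid2 -0.015, Aqp2 -0.53, Clcn6 -0.0060, Ptch1 -0.37, Psap -0.24 and the median of the other aquaporins -0.48. In the same setting, values were the median of the genes around MLC1 -0.38, the median of the relatives of Clcn2 -0.31 and the median of the genes around Gpr37l1 -0.37. Without libraries 18 and 17, values were Aqp4 0.11, Clcn3 0.093 and the ratio Gpr37l1 to Gpr37 0.10.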
